A study of Mus musculus with 8 samples.

Results

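The genes described here are Pthlh, which encodes parathyroid hormone-related protein (PTHrP), and Pth1r, which encodes the receptor that PTHrP shares with parathyroid hormone. They were found by symbol and are 2 of the 24419 rows of a table of read counts per gene from fibroadipogenic progenitors of mouse hindlimb muscle. The pair was selected on the measured level of Pthlh, which was already known to differ between groups of these libraries. The levels of Pthlh are therefore given as a description with no test, and so are those of Pth1r in scrambled and sham libraries, the comparison with the greatest difference in Pthlh. Both genes passed the filter on low counts.

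The 8 RNA libraries came from male C57BL/6J mice, from cells sorted for SCA-1 and against α7-integrin, CD31 and CD45. The knockdown group (n = 3) had KPCY cells, a mouse pancreatic cancer line, implanted in the pancreas after transduction with a lentiviral vector that inhibits miR-27a-3p. The scrambled group (n = 3) had KPCY cells transduced with a lentiviral vector carrying a scrambled sequence. Both tumour groups received 2000000 cells in 50 µL, after 7 days of selection in puromycin at 2 µg/mL, and the sham group (n = 2) had surgery without cells. The inhibitor was in the implanted cells and not in the sorted progenitors, no group carried KPCY cells without a vector, and the labels give no ages or collection times. The labels call the libraries biological replicates and do not say whether cells of several mice were pooled.

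PTHrP is a secreted peptide that acts mostly on nearby cells, and it is best known for holding back the maturation of growth plate cartilage and for raising blood calcium when tumours release it. Its receptor is coupled to Gs and Gq proteins, so that it can raise cyclic AMP, which activates protein kinase A, and can start phospholipase C signalling. In mice with other tumours, PTHrP from the tumour has been reported to drive thermogenic genes in fat and loss of fat and muscle.

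The microRNA inhibited in the implanted cells of the knockdown group is shown first, because it is the only designed difference between the knockdown and scrambled groups. Its mature sequence is from RefSeq (GRCm38.p6, chr8:84208727-84208747, + strand), with the seed, bases 2 to 8, in capitals.
mmu-miR-27a-3p: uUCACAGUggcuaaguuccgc

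Sequences upstream of the transcription starts are shown for the ligand and the receptor, because cyclic AMP signalling acts on genes partly through response elements near their starts. Windows of 300 bases, from 250 before to 50 after a RefSeq start, were searched on both strands, and only the bases outside annotated exons are printed. The window of Pthlh held neither the cyclic AMP response element TGACGTCA, found in 1.79% of 32851 windows of all genes, nor its core TGACG, which lies within that element and was found in 20.8%. It held the SP1 motif GGGCGG 4 times, a motif found in 35.7% of windows. Of the 3 windows of Pth1r, the one farthest upstream held 1 TGACG and no SP1 motif, and the others held 1 and 4 SP1 motifs. The capitals mark motifs that are read on the other strand. In the sequence of Pthlh (GRCm38.p6, chr6:147264184-147264263, - strand) they mark the 1 SP1 motif of the 4 that lies within the printed bases. In that of Pth1r (chr9:110747146-110747395, - strand) they mark the TGACG core.
Pthlh: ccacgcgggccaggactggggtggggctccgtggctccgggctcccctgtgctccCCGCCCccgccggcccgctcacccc
Pth1r: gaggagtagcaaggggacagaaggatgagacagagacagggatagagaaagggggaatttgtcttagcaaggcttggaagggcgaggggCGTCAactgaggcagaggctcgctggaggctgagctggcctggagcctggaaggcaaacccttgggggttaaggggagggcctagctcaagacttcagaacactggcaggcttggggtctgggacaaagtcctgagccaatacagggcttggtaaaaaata
The windows of Pthlh and Pth1r also held no AP-1 motif (TGANTCA, 7.81% of windows), GLI motif (GACCACCCA, 0.253%), SMAD motif (GTCTAGAC, 0.213%), TATA box (TATAAA, 13.6%), E-box (CACGTG, 7.15%) or full glucocorticoid response element (0.00913%). The Pthlh window was 74.0% G and C, against a median of 52.7% over all windows.

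The libraries held between 15647436 and 28340450 counts, and 13646 genes were tested. Pdgfra, the receptor that marks these progenitors, lay between 1256 and 1588 normalised CPM (read counts relative to library size as scaled by TMM) in every library. Of the genes for the markers sorted against, Ptprc (CD45) was at no more than 2.51 CPM, Itga7 (α7-integrin) between 2.78 and 11.5 CPM and Pecam1 (CD31) between 20.2 and 73.0 CPM. Both Itga7 and Pecam1 were higher in every scrambled library than in either sham library, and neither passed the test (edgeR, adjusted p = 0.103 and 0.0802). The scrambled libraries were not alike. The first principal component of log2 CPM, with 61.1% of the variance, put scrambled library 1 at 115, scrambled library 3 at 92.0, scrambled library 2 at -12.3 and the other 5 libraries between -47.7 and -32.3. Reads of the Mir27a precursor numbered 0 in every knockdown and sham library and 12, 12 and 3 in scrambled libraries 1, 2 and 3, which does not check the inhibitor, since it acts on the mature microRNA in the implanted cells. Ly6a and Cd34, surface markers of progenitors (Ly6a encodes SCA-1), were at 451 and 436 CPM and at 213 and 241 CPM in scrambled libraries 1 and 3, and at no less than 933 and 1179 CPM in the other 6 libraries. Of the other 6 progenitor genes listed, Lum and Col1a1 were also lowest in scrambled libraries 1 and 3. Dcn and Pdgfrb were highest in all 3 scrambled libraries, and Pdgfra and Gsn followed neither pattern. In bulk samples, fewer cells of a type and less RNA per cell cannot be told apart.

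Pthlh lies on chromosome 6 from 147252101 to 147264183 (GRCm38, the same build as mm10, - strand). It stood at 10.7, 16.9 and 12.3 CPM in knockdown libraries 1, 2 and 3, at 3.57, 4.82 and 1.20 CPM in scrambled libraries 1, 2 and 3, and at 46.6 and 32.1 CPM in sham libraries 1 and 2. The groups did not overlap: every scrambled library lay below every knockdown library, and every knockdown library below both sham libraries. The means were 13.3 ± 3.20 CPM in knockdown, 3.19 ± 1.84 CPM in scrambled and 39.3 ± 10.2 CPM in sham libraries (SD, n = 3, 3 and 2).

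**Figure D1:**
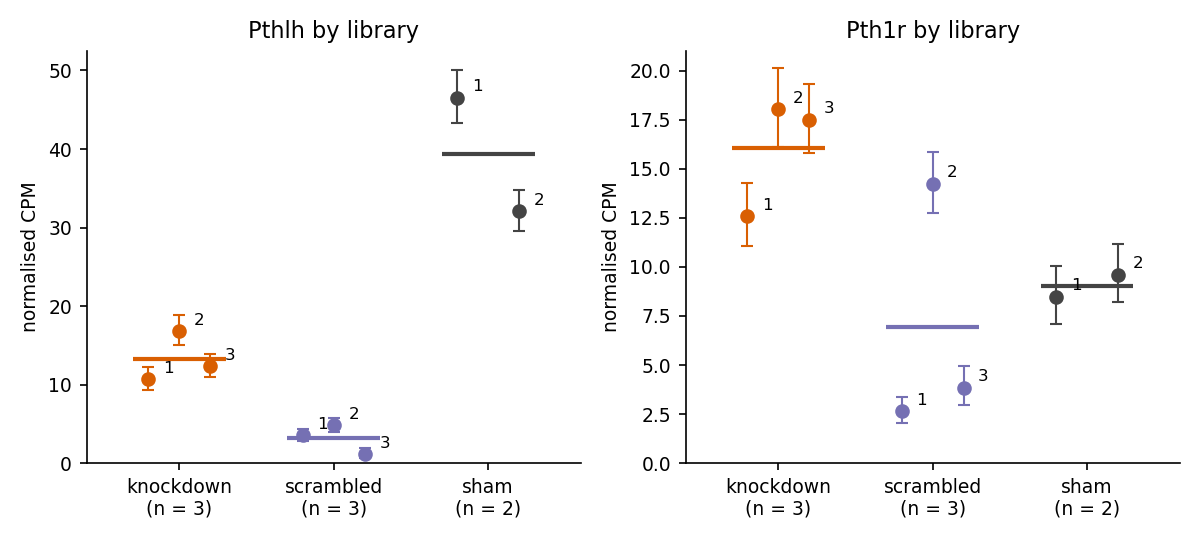
Normalised CPM of Pthlh (left) and Pth1r (right) in each library, numbered by replicate, with bars for the 95% Poisson interval of its reads and a line for the group mean. Pthlh is lowest in the 3 scrambled libraries and highest in the 2 sham libraries, while Pth1r is at 2.66 and 3.84 CPM in scrambled libraries 1 and 3 and at 14.2 CPM in scrambled library 2.

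As fitted by edgeR, the log2 change of Pthlh was -3.56 ± 0.42 (SE) in scrambled against sham libraries, which is 11.8-fold lower. Of the 13646 genes, 44 had a more negative value in this comparison, and by the non-overlap of log2 CPM 20.8% of genes were lower. In knockdown against scrambled libraries the log2 change was 2.00 ± 0.40, 4.0-fold higher, and 17.5% of genes were higher without overlap. In knockdown against sham libraries it was -1.57 ± 0.39, 2.96-fold lower, and 13.5% of genes were lower without overlap. These comparisons share libraries, so their values are not independent of each other. In the knockdown libraries Pthlh stood at 27.1%, 42.9% and 31.4% of the sham mean, and in the scrambled libraries at 9.07%, 12.3% and 3.04%.

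The reads behind these values were 208, 302 and 282 in the knockdown, 91, 114 and 19 in the scrambled and 736 and 575 in the sham libraries. Counting error alone gave 95% exact Poisson intervals of 0.720 to 1.87 CPM for scrambled library 3 and 2.87 to 4.38 CPM for scrambled library 1. These intervals did not overlap, so the spread within the scrambled group was wider than counting error. The interval of scrambled library 2, 3.97 to 5.79 CPM, overlapped that of scrambled library 1 and lay above that of scrambled library 3. The intervals cover counting error of reads and not of molecules, since no molecular identifiers are described.

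Pth1r lies on chromosome 9 from 110722085 to 110747145 (- strand). It stood at 12.6, 18.0 and 17.5 CPM in knockdown libraries 1, 2 and 3, at 2.66, 14.2 and 3.84 CPM in scrambled libraries 1, 2 and 3, and at 8.48 and 9.60 CPM in sham libraries 1 and 2. Scrambled libraries 1 and 3 lay below every other library and scrambled library 2 above both sham libraries and knockdown library 1, so the scrambled group overlapped both others. The means were 16.03 ± 3.01 CPM in knockdown, 6.92 ± 6.37 CPM in scrambled and 9.04 ± 0.792 CPM in sham libraries (SD, n = 3, 3 and 2).

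In knockdown against scrambled libraries the log2 change of Pth1r was 1.19 ± 0.53 (edgeR, adjusted p = 0.154), and the groups overlapped. Without scrambled library 2 it was 2.34 (edgeR, adjusted p = 4.22e-05), in a fit that called 54% of all genes tested. Over its 15 alternatives the adjusted p ran from 4.22e-05 to 0.367. In knockdown against sham libraries the log2 change was 0.83 ± 0.60 (edgeR, adjusted p = 1, from 0.152 to 1 over its alternatives), although every knockdown library lay above both sham libraries, as did 13.8% of all genes. In scrambled against sham libraries the fitted value was -0.37 ± 0.61, with -1.52 without scrambled library 2 and 0.04 without scrambled library 1, so its sign rested on single libraries. Ly6a, Cd34, Lum and Col1a1 were, like Pth1r, lowest in scrambled libraries 1 and 3. Dcn was highest in all 3 scrambled libraries, and the other 3 of 8 progenitor genes were not lowest in scrambled libraries 1 and 3. The part of the makeup of those libraries in the level of Pth1r was not tested.

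Levels of the ligand and the receptor were set side by side as CPM per kilobase of exon, with exon lengths of 1619 bases for Pthlh and 2925 bases for Pth1r. In knockdown libraries 1, 2 and 3 the level of Pthlh was 1.53, 1.69 and 1.27 times that of Pth1r on this scale. For scrambled libraries 1, 2 and 3 the same ratio was 2.42, 0.611 and 0.563, against 9.92 and 6.04 for sham libraries 1 and 2. The sham libraries thus had the highest ratios, and the ligand was above the receptor in every library except scrambled libraries 2 and 3. Over the 8 libraries the log2 CPM of the genes had a Pearson correlation of 0.54 and a Spearman correlation of 0.36, and 3280 of 9971 genes with at least 5 CPM were more like Pthlh than Pth1r was.

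**Figure D2:**
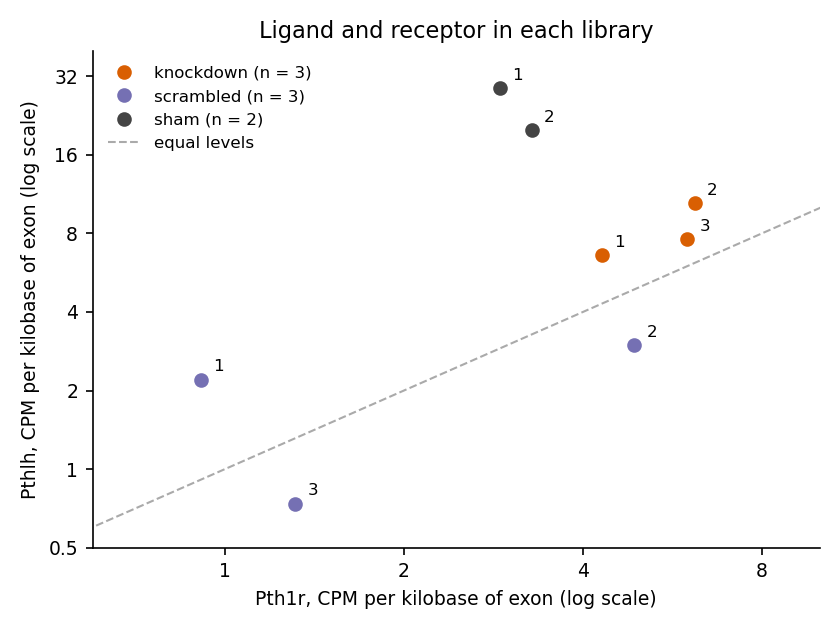
Pthlh (vertical axis) against Pth1r (horizontal axis) in each library, numbered by replicate, in CPM per kilobase of exon on log axes, with a dashed line at equal levels. The sham libraries lie 9.92 and 6.04 times above equal levels, the knockdown libraries between 1.27 and 1.69 times, and scrambled libraries 2 and 3 below the line.

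The neighbours of the genes on their chromosomes were examined in the same libraries. Ccdc91, the nearest protein-coding gene on the right of Pthlh, lies 211645 bases away. It stood at 34.0, 33.9 and 33.7 CPM in knockdown, at 5.96, 30.1 and 11.02 CPM in scrambled and at 34.5 and 29.7 CPM in sham libraries. Ccdc91 was thus low in scrambled libraries 1 and 3, as Pth1r was, but not in scrambled library 2, where Pthlh was low. Klhl42, 139323 bases away on the left, had means of 35.2 ± 3.76 CPM in knockdown, 29.4 ± 2.55 CPM in scrambled and 39.9 ± 8.20 CPM in sham libraries. Neither neighbour passed the test in scrambled against sham libraries (edgeR, adjusted p = 0.210 for Ccdc91 and 0.172 for Klhl42).

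Pth1r overlaps Myl3, a myosin light chain gene of slow muscle and heart on the opposite strand, by 95 bases of exon. The counting strand is not given, so reads in that stretch could belong to either gene. Myl3 had 1, 0 and 4 reads in the knockdown, 0, 2 and 0 in the scrambled and 0 and 1 in the sham libraries, against at least 61 reads of Pth1r in each library. Ccdc12, on the other side, had means of 28.5 ± 0.677 CPM in knockdown, 19.3 ± 6.98 CPM in scrambled and 34.3 ± 8.41 CPM in sham libraries, and was not called (edgeR, adjusted p from 0.116 to 1 over the 3 comparisons).

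Genes with the pattern most like that of Pthlh over the 8 libraries were named by their Pearson correlation of log2 CPM, among 9971 genes with a mean of at least 5 CPM. The 8 highest were Myl12a (0.99), a myosin regulatory light chain, Fam126a (0.98), Tkt (0.98), the transketolase of the pentose phosphate pathway, Kcp (0.98), a secreted modulator of BMP signalling, Tmsb4x (0.98), which binds actin monomers, Itgb7 (0.98), an integrin subunit, Foxo6 (0.98), a forkhead transcription factor, and Inpp1 (0.98), an inositol phosphatase. Itgb7 stood at 35.4, 45.3 and 41.9 CPM in knockdown, 19.2, 18.9 and 6.05 CPM in scrambled and 78.6 and 54.5 CPM in sham libraries. Like Pthlh it was lowest in scrambled library 3 and highest in sham library 1. Myl12a kept the order with a far smaller range, at 212, 216 and 208 CPM in knockdown, 183, 191 and 150 CPM in scrambled and 258 and 232 CPM in sham libraries. The order in which scrambled libraries lay lowest, knockdown libraries between and sham libraries highest, with no overlap, was held by 428 of 13646 genes (3.14%), Pthlh included.

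The 8 genes most like Pth1r were Atxn7l3b (0.99), Snx14 (0.99), a sorting nexin, Zranb2 (0.98), a splicing factor, Stxbp4 (0.98), Smc2 (0.98), a condensin subunit, Bbip1 (0.98), a subunit of the BBSome of cilia, Maoa (0.97), monoamine oxidase A, and Dapp1 (0.97). Smc2 stood at 8.11, 8.99 and 7.30 CPM in knockdown, 1.37, 7.35 and 1.83 CPM in scrambled and 5.44 and 4.80 CPM in sham libraries. Each of these genes was lowest in scrambled libraries 1 and 3, the libraries that stood apart over all genes. The correlations come from 8 libraries of 3 groups and were used to choose the genes, so they are descriptions.

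**Figure D3:**
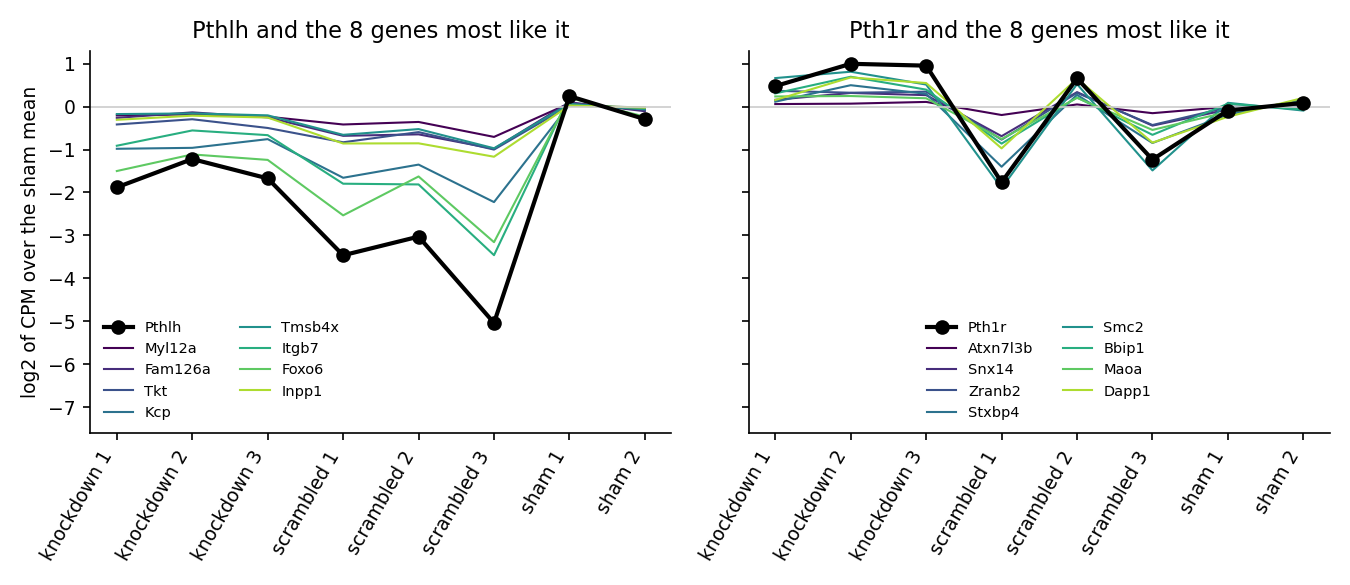
Level of Pthlh (left, black) and Pth1r (right, black) and of the 8 genes most like each (coloured lines) in the 8 libraries, as log2 of the CPM over the mean of the sham libraries. Pthlh lies farther below 0 in all 6 knockdown and scrambled libraries than in either sham library, and Pth1r does so in scrambled libraries 1 and 3 alone.

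The other hormones and receptor of the family were near absent. Pth, which encodes parathyroid hormone, and Pth2, which encodes the ligand of the second receptor, had 0 reads in every library, where a count of 0 allows up to 3 reads per library. Pth2r, which encodes that receptor, had 1, 2 and 0 reads in the knockdown, 0 in each scrambled and 0 and 1 in the sham libraries. Pthlh was therefore the only ligand gene of the family, and Pth1r the only receptor gene, that passed the filter on low counts in these cells.

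Around the pair, 9 lists of pathway genes held 128 other genes, of which 111 were tested. By edgeR 0 of the 111 passed in scrambled against sham libraries, where 1.58% of all genes passed. Before adjustment, at p below 0.05, 24 were higher and 10 lower (30.6%, against 29.2% of all genes). DESeq2 called 22 of 110 (20.0%, against 14.3% of all genes) and limma-voom 1 of 111 (against 1.11% of all genes). In knockdown against scrambled libraries edgeR also called 0 of 111, where 0.0513% of all genes passed. There 15 were higher and 20 lower before adjustment (31.5%, against 32.4%), DESeq2 called 23 of 110 (20.9%, against 15.9%) and limma-voom 0 (against 0.0366%). In knockdown against sham libraries edgeR called 0 of 111, where 0.00733% of all genes passed, with 2 higher and 1 lower before adjustment (2.70%, against 2.37%), while DESeq2 called 1 of 107 (against 0.209% of all genes) and limma-voom 0 (against 0.00733%). Without scrambled library 2, edgeR called 63 of 110 in scrambled against sham libraries, 33 higher and 30 lower, where 51% of all genes passed. In the same fit it called 57 of 110 in knockdown against scrambled libraries, where 54% of all genes passed. With only the knockdown and sham libraries fitted, edgeR called 3 of 110, Il6, Ptgs2 and Ramp2, where 0.765% of all genes passed.

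Among 8 tested genes that process or break down peptides, Pcsk6 and Pcsk2, proprotein convertases, followed the order of Pthlh without overlap. Pcsk6 stood at 1244, 1193 and 1444 CPM in knockdown, 319, 1105 and 327 CPM in scrambled and 1855 and 1743 CPM in sham libraries. Its log2 change was -1.62 ± 0.48 in scrambled against sham libraries (edgeR, adjusted p = 0.0932), and scrambled library 2 lay near the knockdown libraries. Furin, the convertase that acts in most cells, stood at 118, 107 and 116 CPM in knockdown and at 204, 134 and 213 CPM in scrambled libraries, with a log2 change of -0.69 ± 0.19 (edgeR, adjusted p = 0.0760). The list had a median log2 change of 0.26 in scrambled against sham and -0.17 in knockdown against scrambled libraries, where all genes had medians of 0.00 and 0.01.

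Of 11 tested receptor partners and desensitising proteins, Ramp2, an accessory protein of class B receptors, had the smallest p in scrambled against sham libraries. It stood at 156, 151 and 148 CPM in knockdown, 123, 156 and 117 CPM in scrambled and 217 and 215 CPM in sham libraries, so both sham libraries lay above all 6 others. Its log2 change was -0.71 ± 0.17 in scrambled against sham libraries (edgeR, adjusted p = 0.0667) and -0.51 ± 0.17 in knockdown against sham libraries (adjusted p = 1). Arrb1, the beta-arrestin that takes part in switching the receptor off, stood at 26.6 and 42.8 CPM in scrambled libraries 1 and 3 and between 86.4 and 114 CPM in the other 6. The median log2 change of the list was -0.28 in scrambled against sham and 0.21 in knockdown against scrambled libraries.

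Downstream of the receptor, 26 genes of the Gs, cyclic AMP and protein kinase A list were tested, with 13 positive and 13 negative in scrambled against sham libraries and a median log2 change of 0.00. Gnas, which encodes the Gs alpha subunit, lay between 865 and 1252 CPM over the 8 libraries. Adcy5 and Adcy7 encode adenylyl cyclases, which make cyclic AMP. Adcy5 stood at 28.5, 25.1 and 30.5 CPM in knockdown, 67.8, 47.9 and 53.0 CPM in scrambled and 25.7 and 34.1 CPM in sham libraries, so every scrambled library was above all 5 others (log2 change 0.91 ± 0.22 against sham, edgeR adjusted p = 0.0668, and -1.003 ± 0.19 in knockdown against scrambled, adjusted p = 0.0610). Adcy7 stood at 118, 134 and 118 CPM in knockdown, 13.2, 92.7 and 14.4 CPM in scrambled and 195 and 124 CPM in sham libraries (log2 change -1.98, edgeR adjusted p = 0.122 in scrambled against sham). Among 11 tested phosphodiesterases, which break cyclic AMP down, Pde4d had the smallest p in scrambled against sham libraries, with a log2 change of 1.09 ± 0.35 (edgeR, adjusted p = 0.105). Among 15 tested genes of the Gq, phospholipase C and protein kinase C list the smallest belonged to Plcb1 (log2 -1.28 ± 0.43, adjusted p = 0.111).

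The list of genes reported to respond to PTH or cyclic AMP, mostly from bone cells, had the highest median of these lists in scrambled against sham libraries, at 0.78 against 0.00 over all genes. The list was not split by the direction of the reported response, and signalling by the receptor was not tested. Of its 22 tested members 15 were positive, and before adjustment 12 were higher and 0 lower at p below 0.05, where 29.2% of all genes were past that p in either direction. Junb, a subunit of the AP-1 transcription factor, stood at 1404.6, 1306.4 and 1458.8 CPM in knockdown, 3585.2, 2041.8 and 3332.4 CPM in scrambled and 1153.5 and 1251.2 CPM in sham libraries. All 3 scrambled libraries were above the 5 others, and the log2 change against sham was 1.31 ± 0.27 (edgeR, adjusted p = 0.0533). Among the alternatives, Junb was called by DESeq2 (which called 14.3% of all genes), by limma-voom (1.11%), by edgeR with no filter on low counts (1.6%) and by edgeR without scrambled library 2 (51%). In knockdown against scrambled libraries the median of the list was -0.48, and 15 of its 22 members were negative. In knockdown against sham libraries Il6, an inflammatory cytokine gene, had the smallest p of the list: it stood at 36.4, 44.4 and 32.2 CPM in knockdown and at 8.98 and 9.15 CPM in sham libraries, a log2 change of 2.05 ± 0.50 (edgeR, adjusted p = 1). By DESeq2 the log2 change of Il6 was 2.05 in knockdown against sham and also 2.05 in scrambled against sham libraries. DESeq2 called 0.209% and 14.3% of all genes in these comparisons. The change of Il6 over sham was thus of like size in both tumour groups. Igf1, which encodes a growth factor, stood at 43.7 and 39.8 CPM in scrambled libraries 1 and 3 and between 143 and 220 CPM in the other 6. The bone genes Sost and Tnfsf11 had at most 5 reads in any library.

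**Figure D4:**
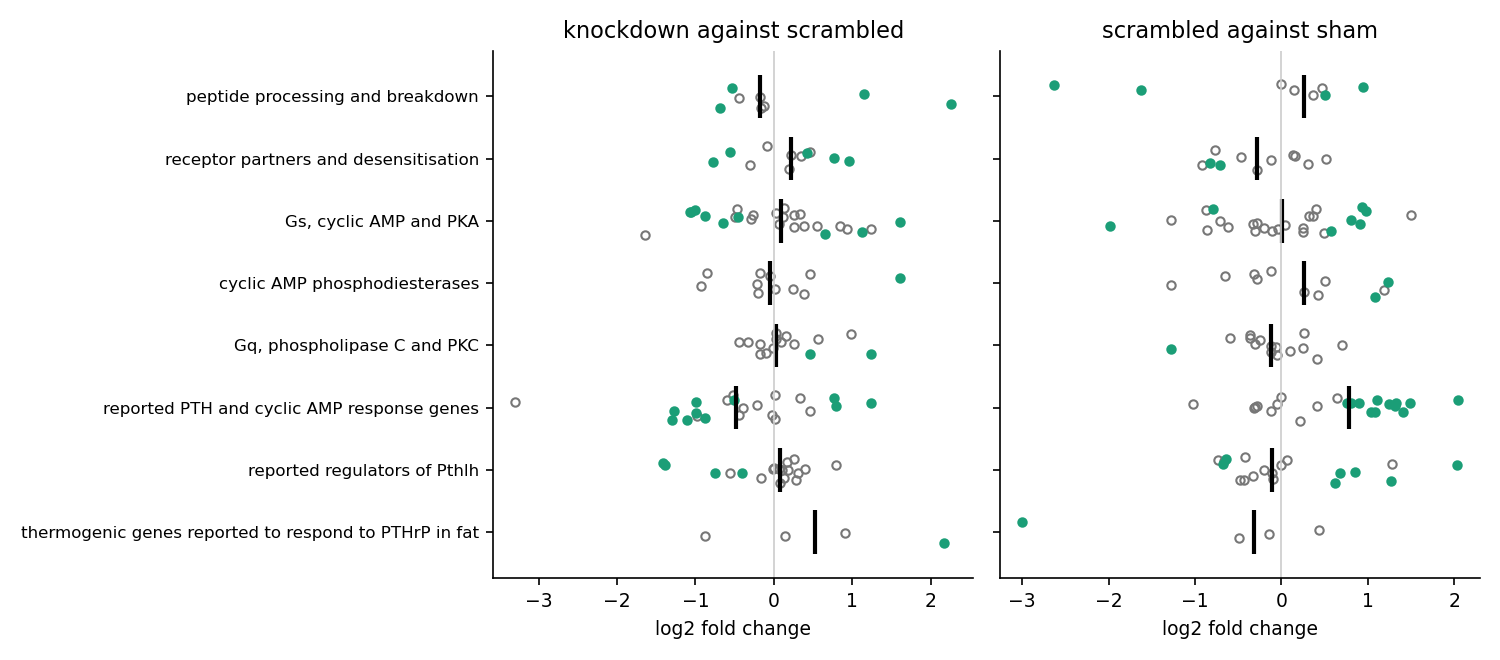
Log2 fold changes of the tested pathway genes in knockdown against scrambled (left) and scrambled against sham libraries (right), by list, with filled points at an unadjusted p under 0.05 (edgeR) and a black line at the median of the list. No gene passed after adjustment over all genes, and the list of reported PTH and cyclic AMP response genes has its median at -0.48 on the left and 0.78 on the right.

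Of 22 reported regulators of Pthlh 19 were tested. Ets1, a transcription factor reported in human cells to act on the promoter of this gene, kept the order of Pthlh without overlap: it stood at 49.9, 58.1 and 54.3 CPM in knockdown, 40.9, 49.6 and 40.5 CPM in scrambled and 76.1 and 63.3 CPM in sham libraries. The lowest knockdown and the highest scrambled library were close, and the log2 change in scrambled against sham libraries was -0.67 ± 0.17 (edgeR, adjusted p = 0.0741). Pcsk2, Pcsk6 and Ets1 were the 3 of 111 pathway genes (2.70%) in that order, near the 3.14% of all genes. Vdr, the vitamin D receptor, stood at 4.72, 2.68 and 4.07 CPM in knockdown, 14.7, 5.07 and 10.96 CPM in scrambled and 3.29 and 1.79 CPM in sham libraries (log2 change 2.03 ± 0.54 in scrambled against sham, edgeR adjusted p = 0.0796). The hedgehog ligand gene Shh had 0 reads in every library and Ihh at most 5, while the mediators Gli1, Gli2 and Gli3 were tested and had log2 changes between -0.48 and -0.42 in scrambled against sham libraries (edgeR, adjusted p from 0.186 to 0.478). Tgfb1, Tgfb2 and Tgfb3 had log2 changes from -0.64 to -0.11 there (adjusted p from 0.155 to 0.787). Of the thermogenic genes that PTHrP is reported to drive in fat, Ucp1 had 0 reads in every library and 4 of 7 were tested, none of them called by edgeR over all libraries. Cox7a1, a mitochondrial respiratory chain subunit gene of this list, was lower in scrambled than in sham libraries. Its log2 change was -3.00 ± 0.78 (edgeR, adjusted p = 0.0667). It was called there as lower by DESeq2 (log2 change -2.99) and by edgeR without scrambled library 2 (log2 change -2.67). These fits called 14.3% and 51% of all genes. Prdm16, a regulator of brown fat identity, was called as higher in knockdown against scrambled libraries by edgeR without scrambled library 2. Its log2 change there was 1.49, in a fit where 54% of all genes passed.

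Markers of other cell types that could carry Pthlh or Pth1r were summed in each library, and some of the lists are given here. The 12 skeletal lineage markers together summed to between 61.4 and 98.5 CPM in knockdown, 56.4 and 77.6 CPM in scrambled and 69.5 and 72.0 CPM in sham libraries, with Bglap, Ibsp and Col10a1 at 0 reads throughout. The 8 epithelial markers, which tumour cells would carry, summed to between 6.52 and 9.88 CPM in knockdown, 4.41 and 19.3 CPM in scrambled and 6.03 and 10.1 CPM in sham libraries. Epcam and Cdh1 had 103 and 240 reads in scrambled library 1, and at most 9 and 56 in any other library. Krt8, Krt18 and Cldn4 were also highest in scrambled library 1. Krt7 and Krt19 were lower there than in either sham library, and Muc1 was not highest there. The 7 endothelial markers summed to 496 to 579 CPM in knockdown, 383 to 445 in scrambled and 502 to 523 in sham libraries. Their median log2 change in scrambled against sham libraries was 0.28, with 6 of 7 positive. The exception, Tek, was the largest part of the sum in every library. It stood at 201, 291 and 216 CPM in scrambled and at 392 and 412 CPM in sham libraries. For the 7 pericyte and smooth muscle markers the sums were 205 to 273 CPM in knockdown, 137 to 225 in scrambled and 171 to 203 in sham libraries. The median log2 change of this list in scrambled against sham libraries was 0.91, with 6 of 7 positive. The exception, Cspg4, stood at 3.45, 35.7 and 6.86 CPM in scrambled and at 92.3 and 103 CPM in sham libraries. The 6 keratinocyte markers, genes of a cell type known to make PTHrP, summed to 105, 199 and 6.60 CPM in the knockdown, 60.5, 20.5 and 2.64 CPM in the scrambled and 6.90 and 7.70 CPM in the sham libraries. The sham libraries, highest in Pthlh, were among the 4 lowest in keratinocyte markers, and Krt5 and Krt14 were at 0 reads there and in knockdown library 3. Among the knockdown and scrambled libraries, knockdown library 2 was highest and scrambled library 3 lowest in both these markers and Pthlh. Knockdown library 3, at 6.60 CPM of these markers, was above every scrambled library in Pthlh. The 7 mature adipocyte markers summed to between 4.31 and 15.7 CPM in knockdown, 23.3 and 47.9 CPM in scrambled and 1.33 and 5.58 CPM in sham libraries, with Lep at 0 reads throughout. Of 5 tested, 1 was called in scrambled against sham libraries, where 1.58% of all genes passed. It was the lipid droplet gene Plin4, which rose by 3.59 ± 0.59 on the log2 scale (edgeR, adjusted p = 0.0300). The 9 muscle fibre markers summed to between 49.9 and 61.4 CPM in knockdown, 84.5 and 303 CPM in scrambled and 33.9 and 69.1 CPM in sham libraries. Adipocyte and fibre markers were thus highest in the scrambled libraries, where Pthlh was lowest. The 6 tenocyte markers summed to 628 to 1270 CPM in knockdown, 657 to 802 in scrambled and 669 to 1046 in sham libraries. Their median log2 change was -1.29 in scrambled against sham libraries, with 1 of 6 positive. In knockdown against scrambled libraries it was 1.19, with 4 of 6 positive, and both medians had the sign of the change in Pthlh. The part of any of these cell types in the level of Pthlh or Pth1r was not tested.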

How the data were processed

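The deposited values are raw read counts for 24419 gene symbols in 8 libraries, made by the authors. The submitters' processing notes name mm10, STAR, Bowtie and DESeq2 1.36.0, without their roles. Per the labels' protocols, libraries were stranded mRNA libraries read as pairs of 59 bases. No counting tool, annotation or strand is given in the sources used here. Of these symbols 6786 were 0 throughout and 25 symbols had become dates. Library depth and its limits are given with the results.

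All genes were fitted together in R 4.3.3 with edgeR 4.0.16: filterByExpr (minimum count 10, total 15), TMM, a robust quasi-likelihood fit of 3 group means over 8 libraries, two-sided tests, and Benjamini-Hochberg adjustment over 13646 genes at 0.05. Standard errors are the absolute log2 change over the square root of F. The fit was tested on simulated data. Log2 CPM used a prior count of 2. Gene positions and exon lengths come from GENCODE M21 (95.6% of symbols matched by name), sequences and their positions from RefSeq. DESeq2 1.42.0 and limma 3.58.1 (voom) were among 15 alternatives. The reported fit had no replicate block. Pathway and marker lists were written from textbook knowledge and overlap in part. The members and lists were chosen with earlier results of these data known, and the motifs after the counts were seen. Named pathway genes were those called or among the 3 with the smallest p in a list and comparison, besides some that show a contrast, chosen after their values were seen (Gnas, Adcy7, Arrb1, Igf1, Gli1, Gli2, Gli3, the Tgfb genes and genes near 0). With no statement that libraries came from separate mice, p-values measure the spread between these libraries.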

Additional observations from a re-analysis of the deposited data

How the results depend on the processing

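Under all 15 alternatives the log2 change of Pthlh kept its sign and moved from the reported value by less than the spread between replicates. It ran from -3.90 to -3.23 in scrambled against sham, from 1.66 to 2.34 in knockdown against scrambled and from -1.81 to -1.28 in knockdown against sham libraries, the extremes coming from fits without 1 library. That of Pth1r ran from -1.52 to 0.04 in scrambled against sham libraries without 1 library, reversing to 0.0365 without scrambled library 1. It ran from 0.79 to 2.34 in knockdown against scrambled libraries and from 0.73 to 0.97 in knockdown against sham libraries. The cause was not tested.

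Calls over all genes depended strongly on the fit. In scrambled against sham libraries (215 in the reported fit) there were 1974 with DESeq2, 133 with edgeR's legacy method, 16 with the replicate block, 4 with only these groups fitted, and between 0 and 6908 without 1 library. In knockdown against scrambled libraries (7) there were 2193 with DESeq2, 11 with no filter, 1 with the legacy method, 0 with the replicate block, 0 with only these groups, and between 0 and 7313 without 1 library. In knockdown against sham libraries (1) there were 26 with DESeq2, 2 with no filter, 0 with the replicate block, 101 with only these groups, and between 0 and 32 without 1 library. Among the fits without 1 library, the highest count in each comparison came without scrambled library 2.

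Of the pathway genes (0 called in each comparison), DESeq2 called 22 in scrambled against sham, 23 in knockdown against scrambled and 1 in knockdown against sham libraries. It called 14.3%, 15.9% and 0.209% of all genes in these comparisons. With no filter and with limma-voom 1 was called in scrambled against sham libraries, where 1.6% and 1.11% of all genes passed. With only the groups compared 3 were called in knockdown against sham libraries, Il6, Ptgs2 and Ramp2, where 0.765% of all genes passed. Without 1 library between 0 and 63 were called in scrambled against sham, between 0 and 57 in knockdown against scrambled and 0 in knockdown against sham libraries. The 63 and 57 came without scrambled library 2, where 51% and 54% of all genes passed. The replicate block changed no pathway call, and with it the log2 changes in scrambled against sham libraries were -3.46 for Pthlh and -0.53 for Pth1r, in knockdown against scrambled libraries 2.11 and 1.43, and in knockdown against sham libraries -1.35 and 0.89. Same-numbered libraries did not deviate together (correlations of deviations from -0.06 to 0.17), so the numbers were not taken as pairs. By Spearman correlation 1 of the 8 genes most like Pthlh and 1 of the 8 most like Pth1r were named again. For Pthlh this count depended on how ties were cut. Fam126a, Foxo6 and Inpp1 all had a Spearman correlation of 1 with it, the highest possible, and only Inpp1 was named again. The others of the 8 were at 0.976.

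With 2 sham libraries the sham spread is poorly known, and 19 reads of Pthlh in scrambled library 3 limit its precision.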
